A study of Mus musculus with 8 samples.

Results

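This is an account of 10 mouse genes of mitochondrial cell death and of the channels of the outer membrane: Cycs, Apaf1, Diablo, Htra2, Aifm1, Endog, Vdac1, Vdac2, Vdac3 and Bnip3. They were taken by name from the 54532 genes of the deposited count table, and all 10 passed the filter on low counts that left 13560 genes to test. The libraries were made from LSK cells (SCA-1+ C-KIT+ cells without lineage markers), the bone marrow compartment that holds hematopoietic stem and early progenitor cells. All donors were C57BL/6 mice of 8 to 12 weeks with floxed Zeb1 alleles and Mx1-Cre, killed 14 days after the last dose of polyinosinic-polycytidylic acid (pIpC), which induces the Cre and so deletes Zeb1. Their LSK cells were sorted by the surface adhesion protein EpCAM into Zeb1-/- EpCAM+ cells (4 libraries) and Zeb1-/- EpCAM- cells (4 libraries). Both fractions therefore carry the deletion and the pIpC treatment, and the comparison holds no library from a control mouse. Mx1-Cre responds to interferon in many cell types and is not confined to stem cells.

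Cytochrome c, the product of Cycs, normally carries electrons between respiratory complexes III and IV in the space between the mitochondrial membranes. When the pore-forming proteins BAX and BAK open the outer membrane, cytochrome c reaches the cytosol and binds APAF1, which assembles into the apoptosome and activates caspase-9. SMAC (Diablo) and HTRA2 leave by the same route and bind the inhibitor of apoptosis proteins that hold caspases in check, while AIF (Aifm1) and endonuclease G (Endog) can move to the nucleus and take part in DNA fragmentation. Each of these proteins except APAF1 also has a place inside the healthy mitochondrion. The voltage-dependent anion channels VDAC1, VDAC2 and VDAC3 let metabolites through the outer membrane, and BNIP3 is a BH3-related outer membrane protein that recruits autophagosomes to mitochondria and is a known target of hypoxia signaling.

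The gene counts summed to 15225714 to 17073546 per EpCAM+ library and to 14114491 to 15929923 per EpCAM- library. Epcam had 2818 to 3580 counts in the EpCAM+ libraries and 17 to 144 in the EpCAM- libraries, in the direction of the labels. Zeb1, the deleted gene, still had 261 to 373 counts in EpCAM+ and 129 to 214 in EpCAM- libraries (log2 fold change 0.72, SE 0.17, edgeR adjusted P = 0.00798). The table sums reads over the whole gene, so these counts do not check the deletion. Of the LSK marker genes, 9 of 10 were higher in EpCAM+ cells and none was lower, with a summed level of 2454 to 2836 CPM against 1187 to 1816. CPM are counts per 1000000 counts of the TMM-scaled library size.

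The 2 fractions also differed in marker genes of blood cell lineages, whose part in the results that follow was not tested. Counts of marker genes, here and for the LSK list, stand beside 20.8% of all tested genes lower and 21.8% higher in EpCAM+ cells. Summed neutrophil markers reached 798 to 1353 CPM in EpCAM+ and 9968 to 15728 CPM in EpCAM- libraries, with 2 of 7 tested genes lower, Mpo and Elane. These 2 genes made up most of the sum, with means of 779 against 10409 CPM for Mpo and 63.2 against 1831 CPM for Elane. The other tested genes of that list, Ngp, Ltf, Camp, S100a8 and S100a9, did not pass the test. Erythroid markers summed to 49.2 to 232 CPM against 1896 to 6602 CPM, with 5 of 6 lower and Hbb-bt higher. Mast cell and basophil markers summed to 66.9 to 86.6 CPM against 227 to 488 CPM, with 4 of 5 lower. Of 5 monocyte markers, 3 were lower, but the sums overlapped, at 56.8 to 146 CPM against 82.1 to 148 CPM. Of 4 tested plasma cell markers 2 were higher in EpCAM+ cells, Jchain and Mzb1, and the list summed to 383 to 3940 CPM in EpCAM+ and 169 to 255 CPM in EpCAM- libraries. Jchain by itself ranged from 3069 to 53916 counts over the EpCAM+ libraries. Of 5 tested dendritic cell markers, 4 were higher, but the sums overlapped, at 17.1 to 223 CPM in EpCAM+ and 7.09 to 19.1 CPM in EpCAM- libraries. Xcr1 of that list ranged from 202 to 2251 counts over the EpCAM+ libraries. Of 4 tested B cell markers 2 were higher in EpCAM+ cells, Ms4a1 and Cd79a, and Pax5 had no read in any library. The B cell sums overlapped, at 75.4 to 123 CPM against 48.3 to 82.2 CPM, and Cd79a ranged from 35 to 556 counts over the EpCAM+ libraries. Cd3e and Ncr1 had no read in any EpCAM- library, and Col1a1 had none at all. Of the remaining lists, 1 of 4 tested megakaryocyte genes was higher, Gp9, and 3 of 4 tested epithelial or stromal genes, Krt18, Krt8 and Cdh1. Of 2 tested T and NK cell genes 1 was higher, Cd4, with 21 to 48 counts per EpCAM+ and 11 to 22 per EpCAM- library. The T and NK cell sums overlapped, at 632 to 794 CPM in EpCAM+ and 683 to 883 CPM in EpCAM- libraries. In bulk RNA, fewer cells of a type and less RNA in each cell cannot be told apart.

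Of the 10 genes, 6 had less RNA in EpCAM+ than in EpCAM- cells: Endog, Htra2, Vdac1, Cycs, Vdac2 and Aifm1, in order of the size of the difference. Only Bnip3 was higher, and Apaf1, Diablo and Vdac3 did not pass the test (edgeR's quasi-likelihood test, two-sided, Benjamini-Hochberg adjusted P under 0.05 over all tested genes). Of all 13560 tested genes, 20.8% were lower and 21.8% were higher in EpCAM+ cells by the same rule. The median log2 fold change of the 10 genes was -0.49, that of all tested genes 0.02. In 7 of the 10 genes the 4 values of one fraction all lay on one side of the 4 of the other, which held for 40.1% of all tested genes. These 7 are the genes that passed the test.

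**Figure D1:**
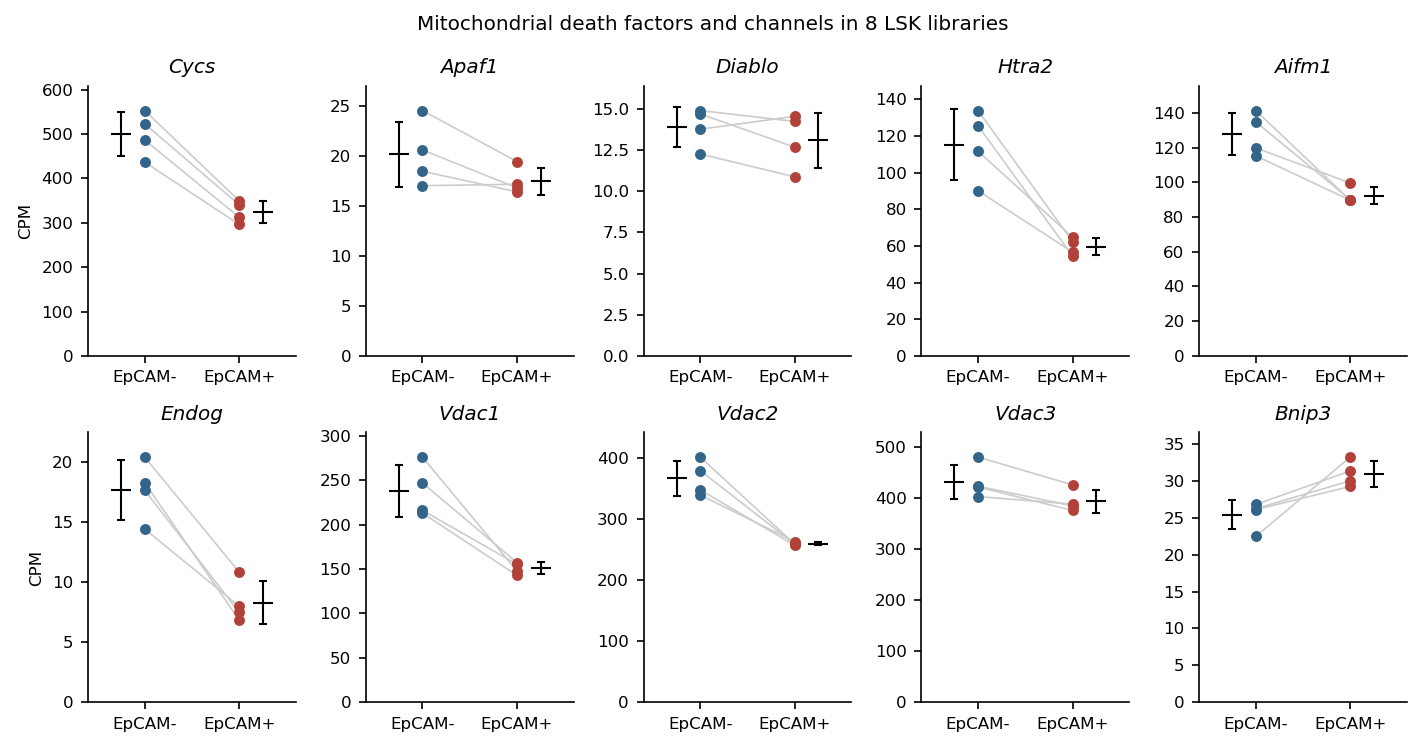
CPM of each gene (vertical axes, each from 0) in the 4 EpCAM- libraries (blue) and the 4 EpCAM+ libraries (red), with mean and SD as black bars and gray lines joining libraries with the same replicate number. The red points lie below all blue points for Cycs, Htra2, Aifm1, Endog, Vdac1 and Vdac2, above them for Bnip3, and overlap them for Apaf1, Diablo and Vdac3.

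**Figure D2:**
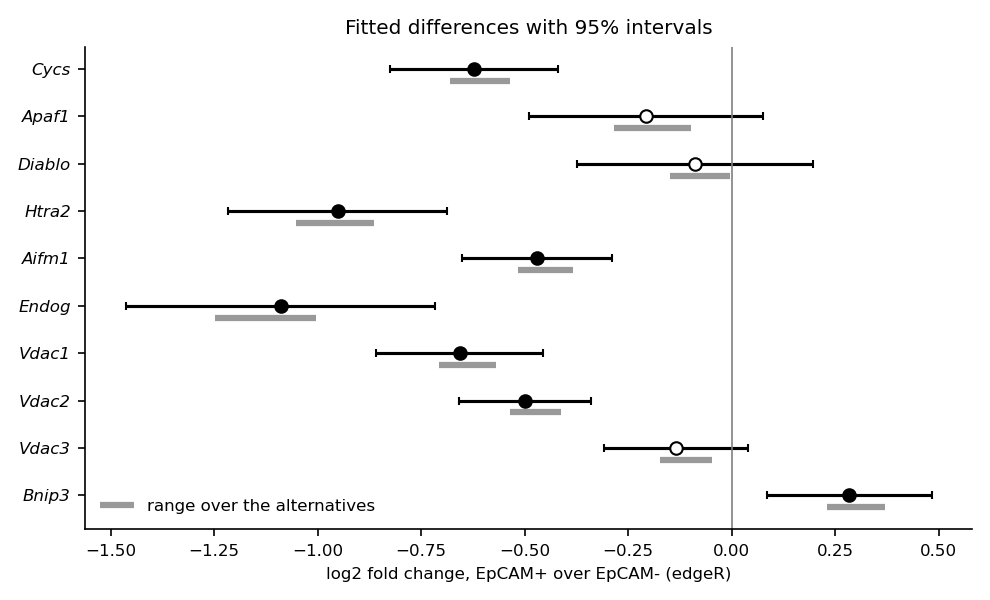
Fitted log2 fold change of each gene, EpCAM+ over EpCAM- (horizontal axis), with the 95% interval of the edgeR fit, filled where the adjusted P is under 0.05, and a gray bar for the range over the alternative analyses. Endog (-1.09) and Htra2 (-0.95) lie farthest from 0, and no gray bar crosses 0.

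The stretches of DNA before the transcription starts show what letters these genes carry, and RefSeq windows of 300 bases (250 before and 50 after the start, build GRCm38.p6) were at hand for 7 of the 10 genes. Each window was searched on both strands for CACCTG, the E-box that ZEB1 binds, for ACGTG, the core of the hypoxia response element, and for GCGCATGC, the core of the site of the nuclear respiratory factor NRF1. The E-box letters stood in windows of Diablo, Endog, Vdac1 and Bnip3, 4 of 7 genes, and in 20.2% of all 32851 mouse windows. ACGTG stood in those of Cycs, Apaf1, Endog, Vdac1 and Bnip3, 5 of 7 genes, and in 19.6% of all windows. The NRF1 core stood in those of Cycs, Apaf1 and Aifm1, 3 of 7 genes, and in 2.71% of all windows. A match of letters is not evidence of binding. Vdac1 was searched in 2 windows that its gene count pools, while the shares of all windows count each window by itself. The runs below, each read 5′ to 3′ on the minus strand and lying before the start of the gene, show 2 genes that were lower and hold the NRF1 core and the gene that was higher and holds the other 2 motifs, all in capitals. They cover chr6:50566570-50566819 for Cycs, chrX:48513564-48513813 for Aifm1 and chr7:138909520-138909756 for Bnip3. In Bnip3 the hypoxia core matches both strands as CACGTG, whose overlapping copies count as 2. The Cycs run also holds a hypoxia core in capitals. Endog, which was lower, holds the same 2 motifs as Bnip3. Vdac1, also lower, holds ACGTG in 1 window and the E-box only in the other, whose bases before the start lie within the gene. Apaf1 holds the NRF1 core and did not pass the test. Whether a motif goes with a direction was not tested.
Cycs: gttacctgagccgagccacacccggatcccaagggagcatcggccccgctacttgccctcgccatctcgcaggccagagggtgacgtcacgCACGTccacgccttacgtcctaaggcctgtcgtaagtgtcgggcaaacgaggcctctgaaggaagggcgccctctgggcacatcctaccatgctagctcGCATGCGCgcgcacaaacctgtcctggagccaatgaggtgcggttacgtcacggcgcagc
Aifm1: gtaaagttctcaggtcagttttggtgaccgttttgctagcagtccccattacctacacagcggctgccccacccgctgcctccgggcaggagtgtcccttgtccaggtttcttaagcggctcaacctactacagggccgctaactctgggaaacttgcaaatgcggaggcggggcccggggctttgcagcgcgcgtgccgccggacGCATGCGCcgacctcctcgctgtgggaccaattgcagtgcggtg
Bnip3: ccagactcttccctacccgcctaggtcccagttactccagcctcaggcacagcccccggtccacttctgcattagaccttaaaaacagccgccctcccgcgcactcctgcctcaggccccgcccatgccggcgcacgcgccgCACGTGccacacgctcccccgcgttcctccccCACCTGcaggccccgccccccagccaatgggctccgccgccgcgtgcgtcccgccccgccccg

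Of the apoptosome genes, Cycs passed the test and Apaf1 did not, and the difference between them was not tested. Cycs (ENSMUSG00000063694, GRCm38 chr6:50562563-50566538, minus strand) had 296, 349, 312 and 340.5 CPM in EpCAM+ libraries 1 to 4 and 437, 553, 486 and 523 CPM in EpCAM- libraries 1 to 4. The highest EpCAM+ value stayed well under the lowest EpCAM- value. The mean was 325 ± 24.7 CPM against 499.7 ± 50.04 CPM (SD, n = 4 each), a ratio of 0.65 (log2 fold change -0.62, SE 0.09, edgeR adjusted P = 0.000715). In the 4 numbered pairs of libraries the log2 difference was nearly constant, from -0.66 to -0.56. Cycs has 9 near-identical processed pseudogenes in the annotation, of which 3 had reads, and these took under 1% of the counted reads of the group in every library. Any reads dropped before counting because they match several copies would not be in that share, and whether there were any was not tested.

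Apaf1 (chr10:90989311-91082770, minus strand) had 16.4, 17.2, 16.8 and 19.5 CPM in EpCAM+ libraries and 18.5, 17.1, 20.6 and 24.6 CPM in EpCAM- libraries. The fractions overlapped, and the EpCAM- value of pair 2 was slightly under its EpCAM+ partner. The fitted log2 fold change was -0.21 (95% interval -0.49 to 0.07, edgeR adjusted P = 0.210), so a decrease as large as that of Aifm1 is within the interval.

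Genes around cytochrome c and the apoptosome were read from lists of their partners. Counts in these lists stand beside 20.8% of all tested genes lower and 21.8% higher. Of 17 genes for the heme lyase and the electron transfer partners of cytochrome c, 9 were lower and none was higher; the list's median log2 fold change was -0.35. Cyc1, the cytochrome c1 subunit of complex III that hands electrons to cytochrome c, changed by -0.69 (SE 0.09, edgeR adjusted P = 0.000490), and Hccs, the lyase that attaches heme to cytochrome c, by -0.43 (SE 0.07, edgeR adjusted P = 0.00138). The complex III genes Uqcrfs1 (-0.50) and Uqcrc2 (-0.46) were also lower. Of 10 caspases and caspase inhibitors, 4 rose and 2 fell (median 0.02), and 1 was lower with upper-quartile scaling or library totals. Casp6, an executioner caspase, was higher by 0.48 (SE 0.10, edgeR adjusted P = 0.00392). The inhibitors Xiap (0.44) and Birc2 (0.29), which SMAC and HTRA2 bind as proteins, were higher too. Casp9, the caspase that APAF1 activates, did not pass the test (0.08, SE 0.11, edgeR adjusted P = 0.563). It was named after its values were seen, for its place beside Apaf1. Leaving out EpCAM+ library 3, EpCAM+ library 4 or EpCAM- library 3 left 2 genes of the caspase list higher and 1 lower.

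Of the antagonists of the inhibitor of apoptosis proteins, Htra2 was lower and Diablo did not pass the test. Htra2, a serine protease that also guards protein quality in the intermembrane space (chr6:83051266-83055273, minus strand), had 56.7, 64.8, 54.5 and 62.4 CPM in EpCAM+ libraries and 90.1, 112, 126 and 134 CPM in EpCAM- libraries. EpCAM- library 1 was the lowest of its fraction and still lay above every EpCAM+ library. The means were 59.6 ± 4.78 and 115 ± 19.1 CPM (SD, n = 4 each), a ratio of 0.52 (log2 fold change -0.95, SE 0.12, edgeR adjusted P = 0.000349). Pair differences ran from -1.20 to -0.67 on the log2 scale. Exons of Htra2 overlap those of Aup1 and Loxl3 on the other strand over 25.6% and 18.2% of their bases. Aup1 changed by -0.37 (SE 0.09, edgeR adjusted P = 0.00847) and Loxl3, with 9 to 51 counts, by 0.76 (SE 0.38, adjusted P = 0.128). How reads over 2 genes were assigned, and whether strand was used, is not given in the sources used here, so whether Htra2 shares reads with these neighbors was not tested.

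Diablo (chr5:123509765-123524176, minus strand) had 14.5, 12.7, 10.9 and 14.2 CPM in EpCAM+ libraries and 13.8, 14.7, 12.3 and 14.9 CPM in EpCAM- libraries. The fractions lay on top of each other, and pair 1 differed in the opposite direction to the other 3. The log2 fold change was -0.09 (95% interval -0.37 to 0.20, edgeR adjusted P = 0.602). This measurement is a weak one, because 705 of the 772 coding bases of Diablo (91.3%) also lie in exons of Gm49027, a gene on the same strand that itself had 0 to 4 counts per library. If reads over both genes were dropped in counting, the Diablo values rest mostly on exon bases outside its coding sequence, and its level is understated. Whether they were dropped was not tested.

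Both genes of the nuclear DNA degradation arm were lower. Aifm1, whose product AIF is a flavoprotein that inside mitochondria supports assembly of the respiratory chain (chrX:48474944-48513563, minus strand), had 89.6, 99.5, 90.03 and 89.6 CPM in EpCAM+ libraries and 115, 119.8, 135 and 141 CPM in EpCAM- libraries. All but one of the EpCAM+ values were nearly equal, with library 2 above the rest. The ratio of the fractions was 0.72 (log2 fold change -0.47, SE 0.08, edgeR adjusted P = 0.00151). Endog (chr2:30171493-30174069, plus strand) had 8.02, 10.9, 6.86 and 7.50 CPM in EpCAM+ libraries and 14.4, 20.4, 18.3 and 17.7 CPM in EpCAM- libraries. Library 2 was the highest of each fraction. Endog had the largest fitted difference of the 10 genes, with a ratio of 0.47 (log2 fold change -1.09, 95% interval -1.46 to -0.72, edgeR adjusted P = 0.000901), on 116 to 277 counts per library. On the other strand, Spout1 overlaps 35.7% of the exon bases of Endog and changed by -0.38 (SE 0.09, edgeR adjusted P = 0.00643). Whether Endog shares reads with Spout1 was not tested.

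Of 8 listed partners of AIF and endonuclease G, 5 were lower and none higher (all tested genes: 20.8% lower, 21.8% higher). The list's median was -0.36, and 2 genes were lower with library totals as the scaling. Chchd4, the import receptor of the intermembrane space that works with AIF, changed by -0.57 (SE 0.08, edgeR adjusted P = 0.000715). Gfer, the oxidase that recharges it, changed by -0.48 (SE 0.09, adjusted P = 0.00223). Parp1, which senses DNA breaks and can set off AIF release, changed by -0.28, and the flap nuclease Fen1 by -0.45. Dffa and Dffb, which encode the inhibitor of the caspase-activated nuclease and the nuclease itself and were named after their values were seen, did not pass the test (-0.14 and -0.13). Without EpCAM- library 3, 3 genes of the list were lower.

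Of the 3 VDAC genes, Vdac1 and Vdac2 were lower and Vdac3 did not pass the test. Vdac1 (chr11:52360860-52389397, plus strand), the isoform best known as a docking site for hexokinase, had 143, 155, 157 and 148 CPM in EpCAM+ libraries and 213, 216, 247 and 276 CPM in EpCAM- libraries. The lowest EpCAM- value exceeded the highest EpCAM+ value, and the ratio was 0.63 (log2 fold change -0.66, SE 0.09, edgeR adjusted P = 0.000542). Vdac2 (chr14:21825238-21845879, plus strand), the isoform that binds BAK, had 263, 257, 259 and 259 CPM in EpCAM+ libraries and 339, 348, 379 and 401 CPM in EpCAM- libraries. Its EpCAM+ libraries were the tightest group of values of all 10 genes, with a coefficient of variation of 1.00% against 7.84% in the EpCAM- libraries. The ratio was 0.71 (log2 fold change -0.50, SE 0.07, edgeR adjusted P = 0.000653). Vdac3 (chr8:22577075-22593813, minus strand) had 389, 426, 376 and 385 CPM in EpCAM+ libraries and 403, 481, 422 and 424 CPM in EpCAM- libraries. Its fractions overlapped, because EpCAM+ library 2 exceeded 3 of the EpCAM- libraries. The log2 fold change was -0.13 (95% interval -0.31 to 0.04, edgeR adjusted P = 0.189), although all 4 numbered pairs were lower in EpCAM+ cells, by -0.17 to -0.05. With the replicate number as a block, the adjusted P for Vdac3 was 0.0554.

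Near-identical copies bear on Vdac3. Vdac3-ps1, which is 99.5% identical over 853 bases, had 735 to 962 counts, and Gm7591 had fewer. Together these copies took 13.2% to 13.8% of the reads of the group, with no library apart from the rest. Vdac3-ps1 changed by -0.14 (SE 0.09, edgeR adjusted P = 0.221), and Vdac3 stayed outside the threshold when the counted reads of both copies were added to it. Any reads dropped because they match several copies would not be restored in this way.

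Per kilobase of the length column in the table, Vdac3 made up 39.5%, 41.0%, 37.8% and 39.1% of the summed VDAC level in EpCAM+ libraries and 32.8%, 36.4%, 31.0% and 29.2% in EpCAM- libraries. The Vdac3 share was thus higher in every EpCAM+ library than in any EpCAM- library. Vdac1 went the opposite way, with 30.1% to 32.7% against 33.8% to 39.4%. The Vdac2 share overlapped, at 28.1% to 30.4% against 29.9% to 31.6%. The shares themselves depend on the length used. On the authors' FPKM scale Vdac2 was the largest of the 3 genes, at 41.9% ± 1.18 in EpCAM+ and 44.0% ± 1.03 in EpCAM- libraries (SD, n = 4 each). On that scale the Vdac3 share was again higher in EpCAM+ libraries, at 32.8% to 35.9% against 25.3% to 31.6%.

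**Figure D3:**
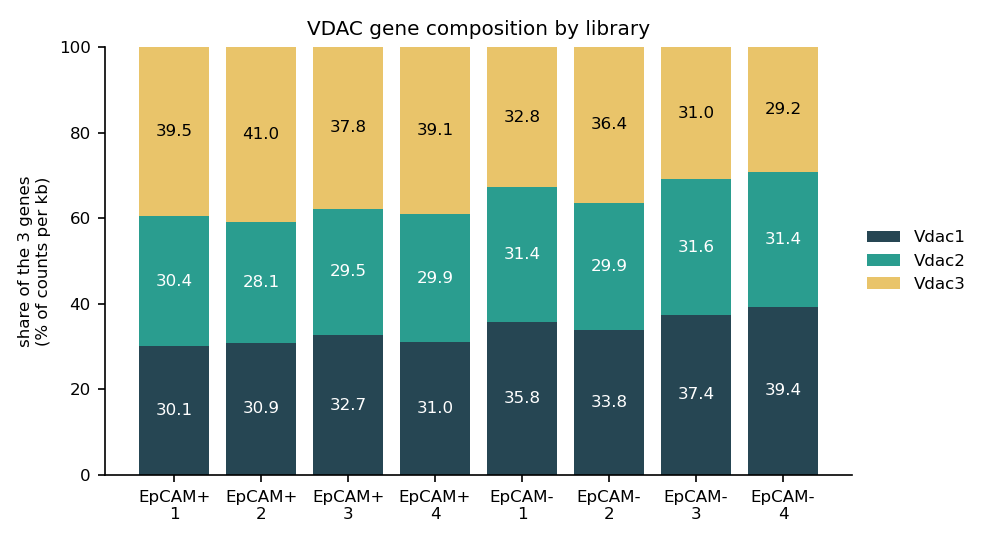
Share of Vdac1, Vdac2 and Vdac3 in their summed counts per kilobase (vertical axis, percent) in each of the 8 libraries (horizontal axis). Vdac3 takes 37.8% to 41.0% in the EpCAM+ libraries and 29.2% to 36.4% in the EpCAM- libraries.

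Of 13 genes for proteins that work with VDAC, 4 were lower and 2 higher (all tested genes: 20.8% lower, 21.8% higher). The list's median was -0.22. Hk3, a hexokinase of myeloid cells, changed by -1.07 (SE 0.12, edgeR adjusted P = 0.000226), while the hexokinases that dock on VDAC did not pass the test (Hk1 -0.32 and Hk2 0.07, both named after their values were seen). Hspa9, the mitochondrial chaperone that tethers VDAC to the calcium channel of the endoplasmic reticulum, changed by -0.69 (SE 0.11, adjusted P = 0.00105). Slc25a5, an adenine nucleotide carrier of the inner membrane, changed by -0.49, and Tspo, an outer membrane cholesterol-binding protein, by -0.57. The higher genes were the calcium channels Itpr2 (0.64) and Itpr1 (0.47), both outside the naming rule. The higher genes of the list numbered 1 without EpCAM+ library 1, EpCAM- library 3 or EpCAM- library 4.

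The list for the pore that releases these factors was divided. Of its 10 genes, 3 were lower and 3 higher, with a median of -0.16 (all tested genes: 20.8% lower, 21.8% higher). Bid, which activates the pore, changed by -0.59 (SE 0.08, edgeR adjusted P = 0.000466) and Bax, which forms it, by -0.52 (SE 0.08, adjusted P = 0.000740). Bok, a BAX relative, was higher by 1.07 (SE 0.19, adjusted P = 0.00163), at 14.5 ± 1.35 CPM against 6.90 ± 1.81 CPM. Bcl2l1, the guardian that encodes BCL-XL, was higher by 0.46 (SE 0.10, adjusted P = 0.00401). Of 12 genes for cristae, fission and fusion, which shape the compartment that stores cytochrome c, 5 were lower and none higher, with a median of -0.17, and 3 were lower with upper-quartile scaling or library totals. Those with the smallest adjusted P were the cristae junction genes Chchd3 (-0.56) and Immt (-0.55), the protease Parl (-0.36) and the fusion gene Opa1 (-0.42). Without EpCAM- library 3 or 4, 3 genes of the cristae list were lower.

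Bnip3 was the member with a higher level in EpCAM+ cells. It lies at chr7:138890836-138909519 (minus strand) and had 31.3, 30.0, 29.2 and 33.2 CPM in EpCAM+ libraries and 26.8, 26.2, 26.1 and 22.5 CPM in EpCAM- libraries. The fractions did not overlap, but only a narrow gap parts the lowest EpCAM+ from the highest EpCAM- value. The means were 30.9 ± 1.74 and 25.4 ± 1.97 CPM (SD, n = 4 each), a ratio of 1.22 (log2 fold change 0.28, SE 0.09, edgeR adjusted P = 0.0269). Pair differences ran from 0.16 to 0.56, with the largest in pair 4. The call is the least secure of the 7. It was lost without EpCAM+ library 1 (adjusted P = 0.0687), without EpCAM+ library 4 (adjusted P = 0.0756) and without EpCAM- library 4 (adjusted P = 0.0624), each by edgeR, while the log2 fold change stayed between 0.23 and 0.31 over all 8 fits that leave out a library. Its 4 pseudogene copies took under 1% of the counted reads of the group.

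Relatives of Bnip3 in mitophagy, the removal of mitochondria by autophagy, went both ways: of 14 genes, 4 rose and 4 fell in EpCAM+ relative to EpCAM- cells (median 0.22). Bnip3l, the closest relative of Bnip3 and named after its values were seen, had 211 ± 7.99 CPM in EpCAM+ and 208 ± 12.4 CPM in EpCAM- libraries (log2 fold change 0.02, SE 0.07, edgeR adjusted P = 0.791). The lower genes included Optn, an autophagy receptor (-1.74, SE 0.27, adjusted P = 0.000881), Phb2, an inner membrane receptor (-1.01, SE 0.13, adjusted P = 0.000405), Bcl2l13 (-0.80) and Fkbp8 (-0.33). Those higher were Map1lc3b (0.40), Gabarapl2 (0.43), Ulk1 (0.53) and Fundc1 (0.30), all outside the naming rule. Of 16 tested hypoxia-induced genes, 4 rose and 4 fell (median 0.04). Both lists stand beside 21.8% of all tested genes higher and 20.8% lower. Ndrg1 was higher by 0.44 (SE 0.08, edgeR adjusted P = 0.00220), whereas Ero1l (-0.81), the prolyl hydroxylase Egln1 (-0.42) and Ldha (-0.56) were lower. Adm, another gene of that list, had 0 to 2 counts per EpCAM+ library and none in EpCAM- libraries, and was not tested. The higher genes numbered 7 in the mitophagy list without EpCAM- library 1, and 2 in the hypoxia list without EpCAM+ library 1 or EpCAM- library 3.

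Regulators of mitochondrial biogenesis were mostly outside the threshold, which 20.8% (lower) and 21.8% (higher) of all tested genes passed. Of 11 genes, 2 rose and 2 fell (median -0.16), against 0 lower with upper-quartile scaling or library totals and 4 lower with the replicate number as a block, and 1 higher and 1 lower among genes with 10 counts in every library. Ppargc1a, the coactivator PGC-1α, had 2.68 ± 0.67 CPM in EpCAM+ and 0.54 ± 0.30 CPM in EpCAM- libraries (log2 fold change 2.29, SE 0.39, edgeR adjusted P = 0.00145), on 3 to 15 counts per EpCAM- library, and Gabpb1 was higher by 0.33. Tfb2m (-0.32) and Gabpa (-0.31) were lower. Nrf1, whose core site stands in the Cycs, Apaf1 and Aifm1 windows and which was named after its values were seen, changed by -0.21 (SE 0.08, edgeR adjusted P = 0.0582). The lower genes of the list numbered 0 without EpCAM- library 3 or 4, 1 without EpCAM+ library 1, 2 or 4, and 4 without EpCAM- library 1. Proliferation genes are given beside these results because those that passed the test moved in the direction of most of the death factors. Of 11, 7 were lower and none higher, with a median of -0.30, with the smallest adjusted P for Rrm2 (-0.71), Ccna2 (-0.57), Mcm5 (-0.42) and Mcm2 (-0.41). With upper-quartile scaling 6 were lower, and with library totals 5. Mki67 (-0.12) and Top2a (-0.10), named after their values were seen, did not pass the test. The part of proliferation genes in the differences was not tested.

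**Figure D4:**
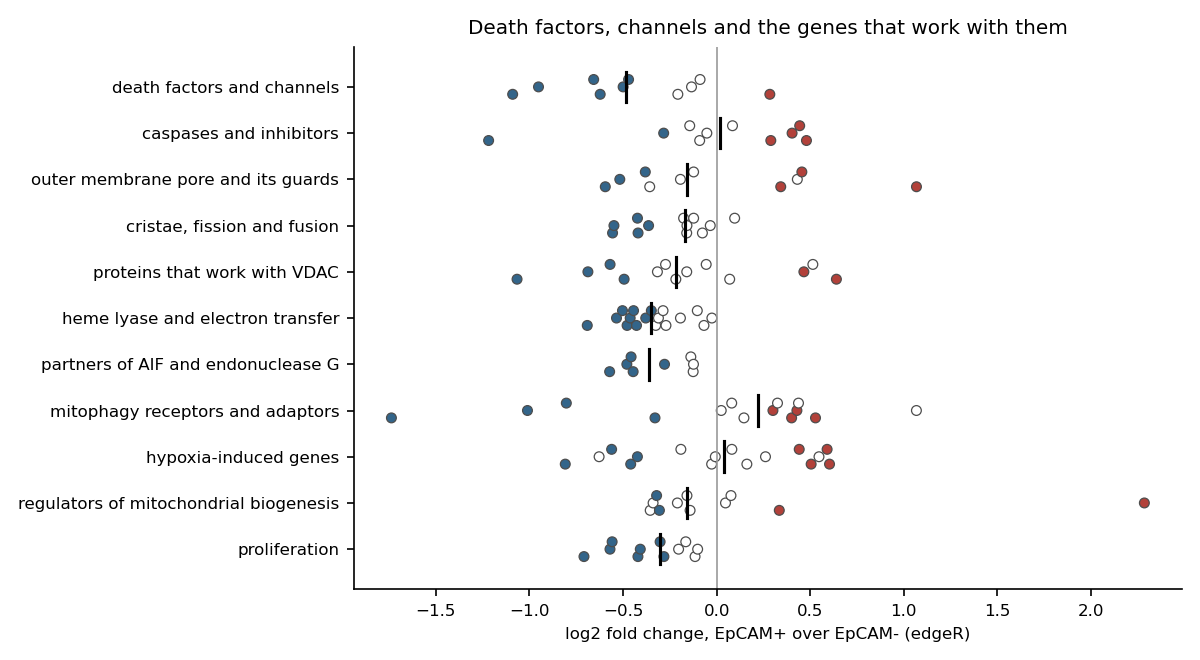
Fitted log2 fold change, EpCAM+ over EpCAM- (horizontal axis), of each tested gene in the 10 genes described and in each list of partner genes, blue where lower and red where higher with an edgeR adjusted P under 0.05, and open otherwise. Black bars are list medians, from -0.49 for the death factors and channels to 0.22 for the mitophagy genes.

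From the most to the least abundant of the 10 genes, levels differed by more than any single gene differed between fractions. In CPM per kilobase of the length column, Cycs was the most abundant in both fractions, at 95.4 ± 7.25 in EpCAM+ and 147 ± 14.7 in EpCAM- libraries (SD, n = 4 each). Apaf1 was the least abundant, at 1.94 ± 0.15 and 2.24 ± 0.36, and its range overlapped that of Diablo in both fractions. In EpCAM+ cells the order after Cycs was Vdac3 (72.7 ± 4.09), Vdac1 (57.6 ± 2.55), Vdac2 (54.4 ± 0.55), Aifm1, Htra2, Bnip3 and Endog, and among these the ranges of Vdac1 and Vdac2 overlapped. In EpCAM- cells Vdac1 (90.8 ± 11.3), Vdac3 (79.8 ± 6.19) and Vdac2 (76.9 ± 6.03) overlapped in turn, Htra2 (39.2 ± 6.50) came before Aifm1 (31.9 ± 3.06) with overlapping ranges, and Endog (16.7 ± 2.34) came before Bnip3 (11.2 ± 0.87). Bnip3 and Endog thus changed places between the fractions on this scale. On the authors' FPKM scale Vdac2 was first in both fractions, and Bnip3 stood above Endog in both.

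**Figure D5:**
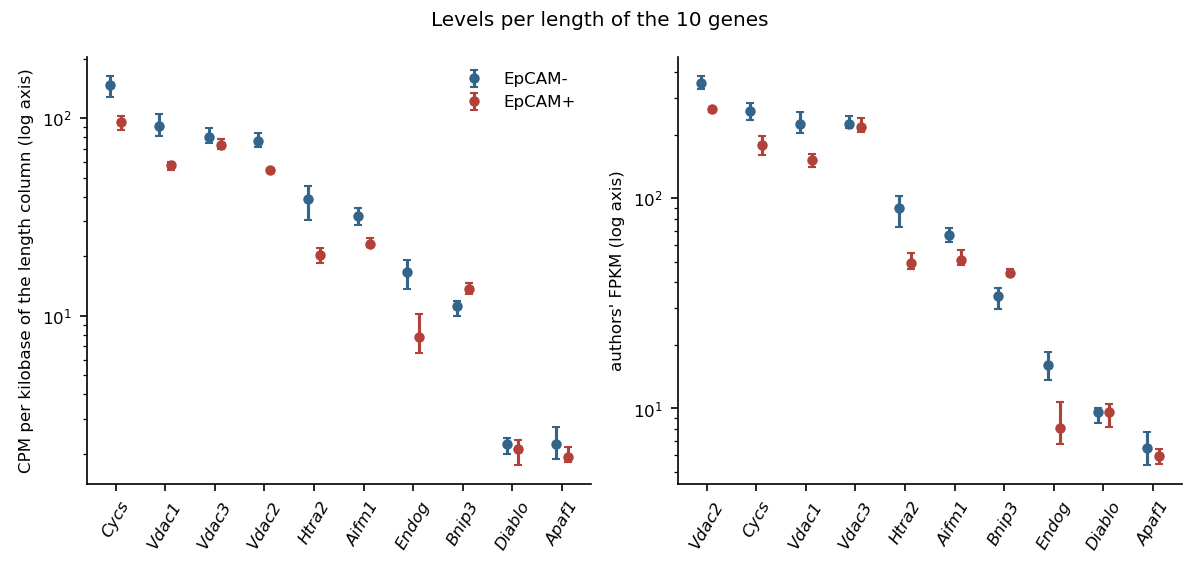
Mean level of each gene per length (vertical log axes), in CPM per kilobase of the length column (left) and in the authors' FPKM (right), for EpCAM- (blue) and EpCAM+ libraries (red), with bars from the lowest to the highest library. Cycs leads on the left and Vdac2 on the right, and Apaf1 is lowest on both.

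The protein-coding genes whose log2 CPM followed each gene most closely over the 8 libraries are given as a description, since for the genes that differed the 2 fractions form separate groups of points that any other differing gene shares. Cycs was closest to Abcb9 (Pearson r 0.997) and Wdr18 (0.996), Htra2 to Recql (0.999) and Bag1 (0.997), and Aifm1 to Snrnp40 (0.996) and Ncbp1 (0.995). Endog was closest to Polr1c (0.996) and Dolpp1 (0.992). For the channels the nearest were Piga (0.998) and Rcc1 (0.998) for Vdac1, C1qtnf12 (0.999) and Nop9 (0.999) for Vdac2, and Emc8 (0.971) and Selenot (0.964) for Vdac3. Bnip3 was closest to Nynrin (0.993) and Rab2b (0.984). The genes outside the threshold had looser neighbors, namely Poc5 (0.977) and Ide (0.969) for Apaf1 and Haus8 (0.953) and Mad2l1bp (0.931) for Diablo.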

How the data were processed

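The authors amplified LSK RNA with SMART-Seq v4, aligned paired-end reads to GRCm38 with STAR 2.6.1d and counted them with featureCounts 1.5.0-p3, per the submitters' processing notes. The deposited table holds whole-number read counts per gene, not normalized, which all tests used, and the authors' FPKM, used here for levels alone. The gene length column of the table gave levels per kilobase. It exceeds the length that the FPKM values imply for most of the 10 genes, so an order of levels depends on the scale. Columns of the authors' comparisons (fold changes with their p-values) were left out. The annotation release, strandedness and treatment of reads over several genes are not given in the sources used here.

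Genes kept by filterByExpr were scaled by TMM and tested with edgeR 4.0.16 in R 4.3.3 (quasi-likelihood, two-sided, Benjamini-Hochberg over all tested genes, threshold 0.05). Standard errors come from the F statistic, and log2 CPM used a prior count of 2. Exact permutation tests of 4 against 4 libraries allow no P under 0.0286, and the 7 genes that passed each had that value. Any gene whose fractions do not overlap gets it, so it adds nothing to the separation given above. Alternatives were DESeq2 1.42.0, limma-trend (limma 3.58.1, pseudocount 1), other scalings and filters, each library left out, the replicate block, and reads of pseudogenes added. Pseudogenes were found by blastn 2.17.0 (at least 90% identity over 200 bases) among GENCODE M21 transcripts. Figures used Python 3.11.15 and matplotlib 3.10.9. On simulated data with 200 genes changed 2-fold among 13560, edgeR recovered 137 and made 148 calls, 11 of them false. The data had far more differing genes, 2961 higher and 2818 lower, and of the genes described only Endog differed by 2-fold or more. The simulation therefore does not show how the scaling or the test behaves in that setting.

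The replicate numbers were taken to pair the libraries for the pair differences and the replicate block. The main edgeR fit, with its standard errors and intervals, and the permutation tests did not use the pairing. Same-numbered libraries deviated together from their fraction means (correlation across genes 0.205 to 0.356 in 4 pairs, against -0.216 to 0.0396 in 12 others), though the sources do not say what the numbers share or whether a number marks a mouse. The labels give 4 mice per group. No 2 libraries of a fraction were duplicates (chi-square per degree of freedom 10.6 or more). Counts carry no molecular identifiers. The genes and lists were chosen with earlier results of these data known. Named from each list of partners were up to 4 genes with the smallest adjusted P, and for each of the 10 genes the 2 protein-coding genes with the highest Pearson r. A gene that the rule names is not reported here. Protein sequences were not used here.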

Additional observations from a re-analysis of the deposited data

Results flagged for a closer look

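Of 20 groups of 4 values (10 genes in 2 fractions), 2 held a value far from the rest by Dixon's test at the 95% level, where chance alone flags about 1 group in 20. Aifm1 reached 99.5 CPM in EpCAM+ library 2, while the other EpCAM+ libraries lay between 89.6 and 90.03 CPM, and its lower level in EpCAM+ cells passed the edgeR test in all 8 fits that leave out a library. Bnip3 had 22.5 CPM in EpCAM- library 4, while the other EpCAM- libraries lay between 26.1 and 26.8 CPM. Without that library the edgeR adjusted P for Bnip3 was 0.0624.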

How the results depend on the processing

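For the 6 lower genes and the 3 outside the threshold, every one of the 17 alternatives (18 for Diablo) kept the direction and the side of the threshold. Bnip3 kept its direction but lost its call in 4 of 17, so the number of higher genes was 0 with a filter of 1 count in any library (edgeR adjusted P = 0.0788) and ranged from 0 to 1 over the fits that leave out a library; the number of lower genes was 6 throughout. With the replicate number as a block, 6 genes were lower and 1 higher as before (Bnip3 0.29, adjusted P = 0.0335), and over all genes 3465 were higher and 3353 lower, against 2961 and 2818 without it. Upper-quartile scaling moved the median of all tested genes from 0.02 to 0.11 and gave 3642 higher and 2083 lower genes, and library totals moved it to 0.10 and gave 3434 and 2073. Relative to that median the 10 genes had a median of -0.51, -0.50 and -0.50 with TMM, upper quartile and totals. Reads of Gm49027 added to Diablo, an alternative chosen after seeing the data, left its call as it was. With 0 to 4 such reads per library the call could hardly move. Reads dropped from both genes would not be among them. The FPKM scale left 5 of the 10 genes at the same rank in EpCAM+ and 4 in EpCAM- cells. It gave shares of 24.0%, 41.9% and 34.2% for Vdac1, Vdac2 and Vdac3 in EpCAM+ and 28.0%, 44.0% and 28.0% in EpCAM- cells, against 31.2%, 29.5% and 39.3% and 36.6%, 31.1% and 32.3% by the length column. Adding pseudogene reads gave 29.4%, 27.8% and 42.9% in EpCAM+ and 34.9%, 29.6% and 35.5% in EpCAM- cells. Of 320 counts of partner genes called under an alternative, 289 stayed within 1.5 times their value. Depth limits Endog, Diablo and Apaf1 most, at 116 to 335 counts per library.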
